A study of Mus musculus with 5 samples.

Results

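The MHC class I and peptide loading genes are described here across the cell types of the mouse aortic arch. The 10 genes were listed by name and taken as columns of the count tables. No cut on measured values picked them, but earlier results of these data were known when they were listed. They are B2m, H2-K1, H2-D1, H2-Q4, H2-Q6, H2-Q7, H2-T22, H2-T23, Tap1 and Tapbp, 10 of the 26189 genes in the tables. All 10 had molecules in the kept cells and enough of them to enter each main comparison.

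The study profiled single cells of atherosclerotic aortic arches to describe the part that serum amyloid A3 plays in aortic immune cells. All mice were female. At 12 weeks of age both genotypes received 1 intraperitoneal dose of an AAV8 vector with the liver-active hAAT promoter, and then a Western diet for 18 weeks. Live CD45+ cells were sorted from the arch, tagged and captured on a BD Rhapsody cartridge as 1 sample with 2 tag pools. The first pool is labelled wild-type (C57BL/6J) and the second Saa3-/- (C57BL/6N-Saa3tm1.1(KOMP)Vlcg/MbpMmucd). The design text calls the 2 genotypes littermates, while the genotype labels name 2 substrains. How many mice went into each pool is not stated. The other 4 samples of the series, bone-marrow-derived macrophages, were not analysed here.

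Saa3, the targeted gene, gave 1079 molecules (148 per 1000000 molecules) in the pool labelled wild-type and 1268 (242 per 1000000) in the pool labelled Saa3-/-, which goes against the labels. The cell types described further on differed in this. In macrophage-like cells the counts ran as labelled, with 896 Saa3 molecules against 39 (315 and 27.0 per 1000000). Fibroblast-like cells ran against the labels, with 21 against 1144 (26.6 and 1546 per 1000000), and 1 cell held 69.8% of the 1144. The pools are therefore named by their labels throughout. Of 1743 deposited cells, 833 and 823 were kept, with a median of 6415 and 4698 molecules per cell. No cell index was shared by the 2 pools. With 1 pool per genotype there is no replicate and no test. A level is the number of molecules per 1000000 molecules of the same cells (CPM). Intervals in brackets are exact 95% intervals that cover counting error only. A gene counted as past the fold where its 2 levels differed at least 2-fold, with at least 20 molecules over both.

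MHC class I molecules display peptides from inside the cell to CD8 T cells. A heavy chain pairs with the light chain beta-2-microglobulin, the product of B2m. TAP, of which Tap1 encodes a subunit, carries peptides into the endoplasmic reticulum, and tapasin, from Tapbp, holds the empty class I molecule next to TAP while a peptide is loaded. H2-K1 and H2-D1 encode the classical heavy chains. H2-Q4, H2-Q6, H2-Q7, H2-T22 and H2-T23 encode non-classical ones. H2-Q7 encodes a Qa-2 antigen, H2-T23 encodes Qa-1, which CD94/NKG2 receptors of NK cells read, and H2-T22 is bound by some gamma-delta T cells. Immature CD4+ CD8+ thymocytes are known for low surface class I, which rises as they mature.

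On GRCm38, B2m lies at chr2:122147686-122153083 on the plus strand. The other 9 genes lie on chromosome 17, in the MHC. They are Tapbp at chr17:33915899-33929292 (plus), H2-K1 at chr17:33996017-34000347 (minus) and Tap1 at chr17:34187553-34197225 (plus). H2-D1 lies at chr17:35262730-35267499, H2-Q4 at chr17:35379617-35385290, H2-Q6 at chr17:35424850-35430055 and H2-Q7 at chr17:35439155-35443773, all on the plus strand. H2-T23 at chr17:36029773-36032855 and H2-T22 at chr17:36037128-36042747 are on the minus strand. All are annotated as protein-coding.

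Class I promoters are known for a compact upstream region with an NF-kappaB site, an interferon response element and the X2 and Y boxes, where CREB-type factors and NF-Y bind and to which the coactivator NLRC5 is recruited. The proximal stretches of 3 promoters are shown as examples. All 10 genes, not only these 3, had lower levels in the same cells, as described further on. A link between the letters and the levels was not tested. They are RefSeq sequences on GRCm38.p6, 5′ to 3′ on the gene's strand. Capitals mark, in order, GGGATTCCC (kappaB) and GTTTCACTT (interferon response element) in both heavy chain genes, GAAANNGAA in B2m, then TGACG (X2) and CCAAT or its complement ATTGG (Y). They span chr17:34000354-34000462 (minus) for H2-K1, chr17:35439018-35439148 (plus) for H2-Q7 and chr2:122147543-122147643 (plus) for B2m.
H2-K1: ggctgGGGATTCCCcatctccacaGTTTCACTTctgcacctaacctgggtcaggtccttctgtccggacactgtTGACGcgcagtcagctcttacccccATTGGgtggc
H2-Q7: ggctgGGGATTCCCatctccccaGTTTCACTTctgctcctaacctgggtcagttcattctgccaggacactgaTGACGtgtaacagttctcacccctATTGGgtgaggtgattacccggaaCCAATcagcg
B2m: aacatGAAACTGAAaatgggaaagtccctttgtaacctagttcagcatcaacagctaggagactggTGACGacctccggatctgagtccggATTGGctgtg

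These letters were searched on both strands in the 250 bases before the start site of 27025 genes. GGGATTCCC was found in 4 of the 10 genes (H2-K1, H2-D1, H2-Q6 and H2-Q7) and in 0.352% of all genes. GTTTCACTT was found in 6, the same 4 with H2-Q4 and H2-T22, and in 0.3996% of all genes. GAAANNGAA was found in B2m, H2-T22 and H2-T23 and in 8.18% of all genes, and in H2-T22 it overlaps the GTTTCACTT match. TGACG was found in 7 of the 10 and in 19.8% of all genes. CCAAT was found in all 10 and in 37.5% of all genes, so it does not tell the 10 genes from each other. A window with GGGATTCCC, GTTTCACTT, TGACG and CCAAT together was found in 3 genes of the whole table: H2-D1, H2-K1 and H2-Q7. A match is a description of letters, not a measured binding site. The letters GGGATTCCC and GTTTCACTT were shortened after their matches were seen. Their counts among the 10 genes, and the count of windows with the motifs together, may therefore depend on that choice. The contrast with all genes is a description for these motifs, not an independent test.

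The genes resemble each other in their transcripts too. Of all stretches of 50 bases in the annotated transcripts, none of B2m and 0.834% of Tap1 were shared with another gene. For H2-K1 and H2-D1 the share was 6.87% and 13.9%. It was 24.3% for H2-Q4, 32.0% for H2-Q6 (most often with H2-Q7), 34.9% for H2-Q7, 28.8% for H2-T23 and 43.9% for H2-T22 (37.5% with H2-T10). How the pipeline assigned molecules that match several of these genes is not given in the sources used here, so the levels of the 5 non-classical genes are uncertain.

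Cells were typed by the markers each expressed, and names ending in -like mean that gate only. At least 20 cells per pool were gated for 7 types. In the order of the wild-type and Saa3-/- labels, which all paired values follow, the pools held 120 and 136 T-cell-like, 26 and 71 thymocyte-like, 48 and 100 B-cell-like, 234 and 171 macrophage-like, and 37 and 35 dendritic-cell-like cells. They also held 72 and 66 fibroblast-like and 100 and 66 smooth-muscle-like cells, although CD45+ cells had been sorted. Ptprc, the gene of CD45, was at 82.5 to 149 CPM in those last 2 types and at 765 to 1473 CPM in the other 5. A further 107 and 106 cells passed no gate. Thymocyte-like cells are T-lineage cells with molecules of at least 2 of Rag1, Rag2, Dntt, Arpp21, Ptcra and Aqp11, genes of antigen receptor rearrangement and early T cell development. T-cell-like cells had none of the 6. Cd4 and Cd8 genes, which the gate did not use, were found together in 73.1% and 83.1% of thymocyte-like cells, against 4.17% and 5.15% of T-cell-like cells.

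Across the 7 types the 10 genes together were at their highest level in CPM in T-cell-like and macrophage-like cells and at their lowest in thymocyte-like and smooth-muscle-like cells. In the pool labelled wild-type the summed level was 14798 CPM (14495 to 15107) in T-cell-like cells, 13822 (13686 to 13959) in macrophage-like cells, 11035 (10711 to 11366) in dendritic-cell-like cells and 10911 (10480 to 11356) in B-cell-like cells. It was 6810 (6630 to 6995) in fibroblast-like, 3040 (2807 to 3286) in thymocyte-like and 2892 (2777 to 3011) in smooth-muscle-like cells. The dendritic and B cell intervals overlapped there, as did those of the 2 lowest types, and all other neighbours in the order were apart.

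The pool labelled Saa3-/- gave 13021 CPM (12724 to 13323) in T-cell-like cells, 12051 (11873 to 12232) in macrophage-like cells, 11419 (11078 to 11768) in B-cell-like cells and 8219 (7907 to 8540) in dendritic-cell-like cells. Fibroblast-like cells followed at 4944 (4785 to 5107), thymocyte-like at 2891 (2722 to 3069) and smooth-muscle-like at 2772 (2625 to 2924). The order differed from the other pool only in the places of B-cell-like and dendritic-cell-like cells, and the 2 lowest types again overlapped. Among smaller groups, given as values only, 8 and 9 NK-cell-like cells stood at 19695 and 16149 CPM, and 25 and 10 cells like type 2 innate lymphoid cells at 18380 and 12876. Monocyte-like cells (19 and 14) stood at 12431 and 12034, and neutrophil-like cells (8 and 14) at 9436 and 11871.

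**Figure D1:**
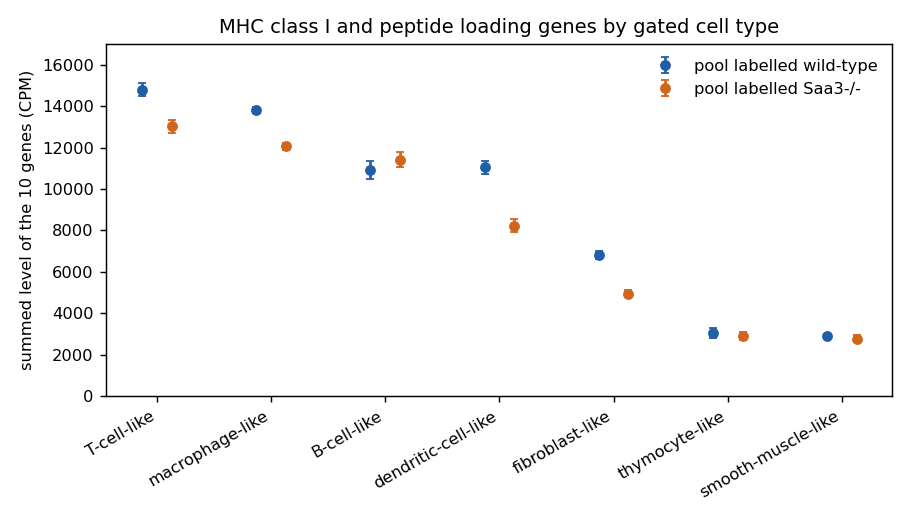
Summed level of the 10 genes in CPM (vertical axis, from 0) for each gated cell type (horizontal axis) and pool. Points are levels over all cells of a group and bars are exact 95% Poisson intervals. Thymocyte-like and smooth-muscle-like cells lie between 2772 and 3040 CPM and every other type lies at 4944 CPM or above.

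Single genes departed from this order. Their highest and lowest types below are named among the 7 types only. B2m, the light chain gene, was highest in macrophage-like cells in both pools (6756 and 5901 CPM), ahead of T-cell-like cells (5603 and 5065). It stood at 4154 and 4083 CPM in B-cell-like, 4645 and 3527 in dendritic-cell-like and 3401 and 2437 in fibroblast-like cells. It was lowest in thymocyte-like (1390 and 1310) and smooth-muscle-like cells (1481 and 1251), whose intervals overlapped in both pools.

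Of the classical heavy chains, H2-K1 was highest in T-cell-like cells (2895 and 2457 CPM). B-cell-like cells followed at 1892 and 1943, macrophage-like at 1840 and 1539, dendritic-cell-like at 1473 and 1222 and fibroblast-like at 783 and 576. Thymocyte-like cells (409 and 437) and smooth-muscle-like cells (372 and 415) were lowest. H2-D1 was instead highest in macrophage-like cells (4128 and 3589 CPM), with T-cell-like cells at 3495 and 3175, dendritic-cell-like at 3029 and 2327 and B-cell-like at 2697 and 2816. Fibroblast-like cells had 1722 and 1249 CPM of H2-D1, thymocyte-like 630 and 646 and smooth-muscle-like 672 and 720. Some smaller groups had higher levels. NK-cell-like cells had 4404 and 3492 CPM of H2-K1 and 4448 and 4204 of H2-D1. Cells like type 2 innate lymphoid cells had 3792 and 2734 CPM of H2-K1 and 4545 and 3960 of H2-D1. Neutrophil-like cells had 1068 and 1253 CPM of H2-K1 and 4674 and 5514 of H2-D1. Monocyte-like cells had 1613 and 1418 CPM of H2-K1 and 3898 and 3702 of H2-D1.

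The Q-region heavy chains were high in T-cell-like and B-cell-like cells. H2-Q6 was at 730 and 481 CPM in T-cell-like and 606 and 935 in B-cell-like cells. It was at 319 and 129 in dendritic-cell-like, 122 and 128 in macrophage-like, and between 29.7 and 57.7 CPM in the other 3 types. H2-Q7 was at 960 and 770 CPM in T-cell-like and 529 and 515 in B-cell-like cells, 219 and 160 in dendritic-cell-like and 161 and 139 in macrophage-like cells. In the other 3 types it lay between 36.5 and 106 CPM. H2-Q4 was at 373 and 348 CPM in T-cell-like and 262 and 375 in B-cell-like cells, against 157 and 140 in macrophage-like cells. Smooth-muscle-like cells were lowest in H2-Q4, with 31.8 and 35.3 CPM. As a share of all molecules of the 10 genes, H2-Q6 and H2-Q7 together made up 11.4% and 9.61% in T-cell-like and 10.4% and 12.7% in B-cell-like cells. In macrophage-like cells the share was 2.05% and 2.21%. High levels were not limited to T-cell-like and B-cell-like cells. Of the smaller groups, NK-cell-like cells had 952 and 965 CPM of H2-Q6 and 1217 and 965 of H2-Q7. Cells like type 2 innate lymphoid cells had 1224 and 766 CPM of H2-Q6 and 983 and 639 of H2-Q7. Monocyte-like cells had 112 and 73.0 CPM of H2-Q6 and 154 and 83.4 of H2-Q7. Neutrophil-like cells had 44.5 and 0 CPM of H2-Q6 and 89.0 and 68.4 of H2-Q7.

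The T-region genes and the loading genes had other peaks. H2-T22 was at 121 and 155 CPM in T-cell-like and 118 and 129 in B-cell-like cells. In the rest of the 7 types it lay at 31.1 to 92.5 CPM. H2-T23 was highest in dendritic-cell-like cells (357 and 251 CPM), and T-cell-like, B-cell-like and macrophage-like cells lay between 217 and 244 CPM. It was lowest in smooth-muscle-like cells (31.8 and 24.9). Of the smaller groups, cells like type 2 innate lymphoid cells had 371 and 307 CPM of H2-T23 and NK-cell-like cells 199 and 230. Monocyte-like cells had 217 and 292 and neutrophil-like cells 267 and 273. Tap1 was highest in dendritic-cell-like cells, at 287 CPM (236 to 344) and 160 CPM (119 to 211). In the pool labelled Saa3-/- the Tap1 level of B-cell-like cells was within that interval, at 159 CPM. Tapbp was also highest in dendritic-cell-like cells (483 and 301 CPM), with fibroblast-like cells at 375 and 301. Its lowest values were in thymocyte-like cells (154 and 112).

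**Figure D2:**
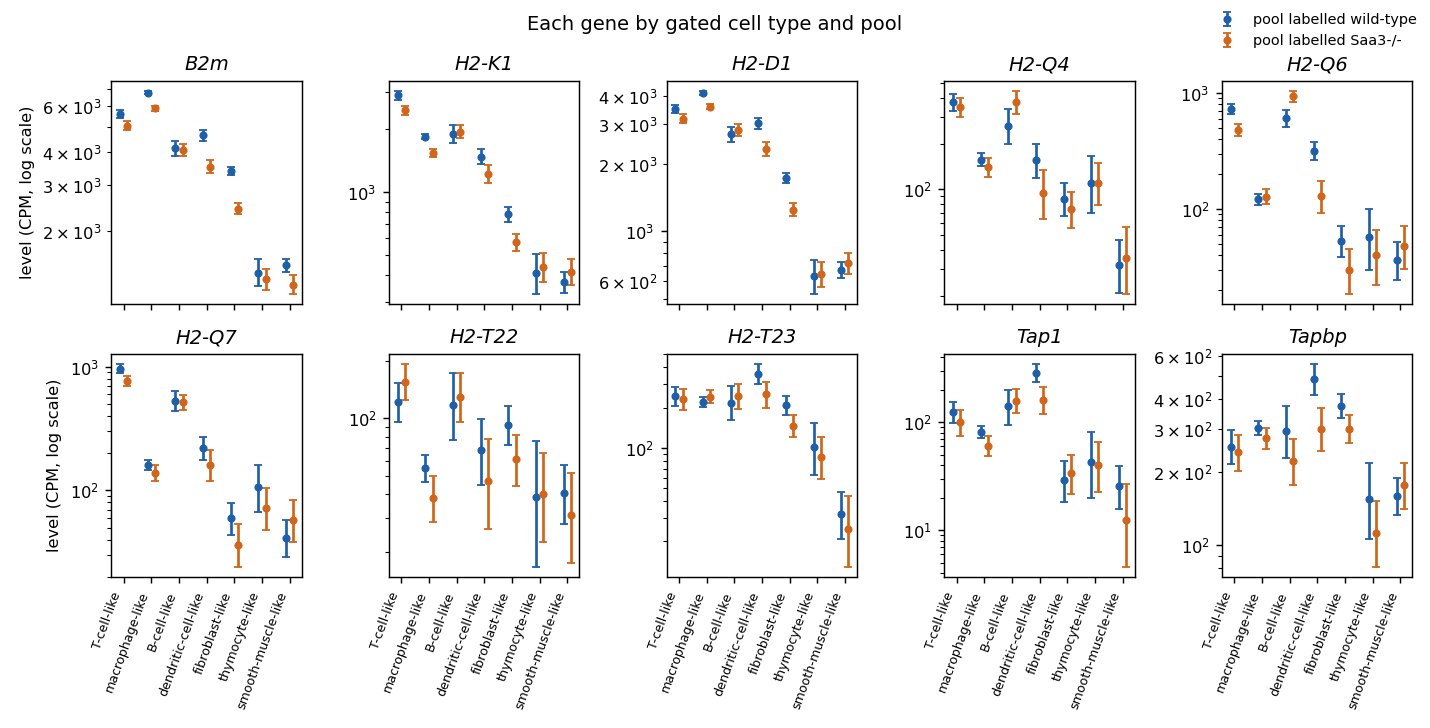
Level of each of the 10 genes in CPM (vertical axes, log scale, 1 panel per gene with its own range) in each gated cell type (horizontal axes) and pool. Points are levels over all cells and bars exact 95% Poisson intervals. Among the 7 types shown, H2-Q6 and H2-Q7 stand apart in T-cell-like and B-cell-like cells, and Tap1 peaks in dendritic-cell-like cells.

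Set against T-cell-like cells of the same pool, thymocyte-like cells had lower levels of all 10 genes in both pools. The summed level was 4.86-fold lower in the pool labelled wild-type, a log2 ratio of −2.28 (−2.40 to −2.17). It was 4.50-fold lower in the pool labelled Saa3-/-, −2.17 (−2.26 to −2.08). At least a 2-fold lower level in both pools was found for 9 of the 10, Tapbp being the exception. Of 6167 genes tested in both pools, 7.83% were that much lower in both, and 7.07% that much higher. The median of the 10 mean log2 ratios was −1.86, and that of all these genes 0.08.

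The Qa-2 family had the largest ratios. H2-Q6 was counted 12 times in thymocyte-like and 446 times in T-cell-like cells of the pool labelled wild-type, a log2 ratio of −3.60 (−4.62 to −2.84), and 15 and 270 times in the pool labelled Saa3-/-, −3.54 (−4.45 to −2.84). H2-Q7 gave −3.15 (−3.87 to −2.57) and −3.39 (−4.04 to −2.86). The classical heavy chains followed, with H2-K1 at −2.82 (−3.16 to −2.51) and −2.49 (−2.73 to −2.25). H2-D1 gave −2.47 (−2.74 to −2.22) and −2.30 (−2.50 to −2.10). The light chain gene B2m gave −2.01 (−2.19 to −1.84) and −1.95 (−2.09 to −1.81), so the ratio of both classical heavy chain genes was further from 0 than that of B2m.

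The remaining non-classical genes moved less. H2-Q4 gave −1.73 (−2.44 to −1.13) and −1.65 (−2.19 to −1.18), H2-T22 gave −1.58 (−2.92 to −0.60) and −1.92 (−2.85 to −1.15), and H2-T23 gave −1.24 (−2.01 to −0.61) and −1.41 (−2.04 to −0.86). The 2 loading genes were nearest to the T cell level among the 10 when both pools are averaged, except that H2-T23 lay between them. Tap1 gave −1.45 (−2.71 to −0.52) and −1.28 (−2.25 to −0.48), from 9 and 15 molecules in thymocyte-like cells. Tapbp gave −0.70 (−1.32 to −0.16) and −1.09 (−1.64 to −0.59).

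**Figure D3:**
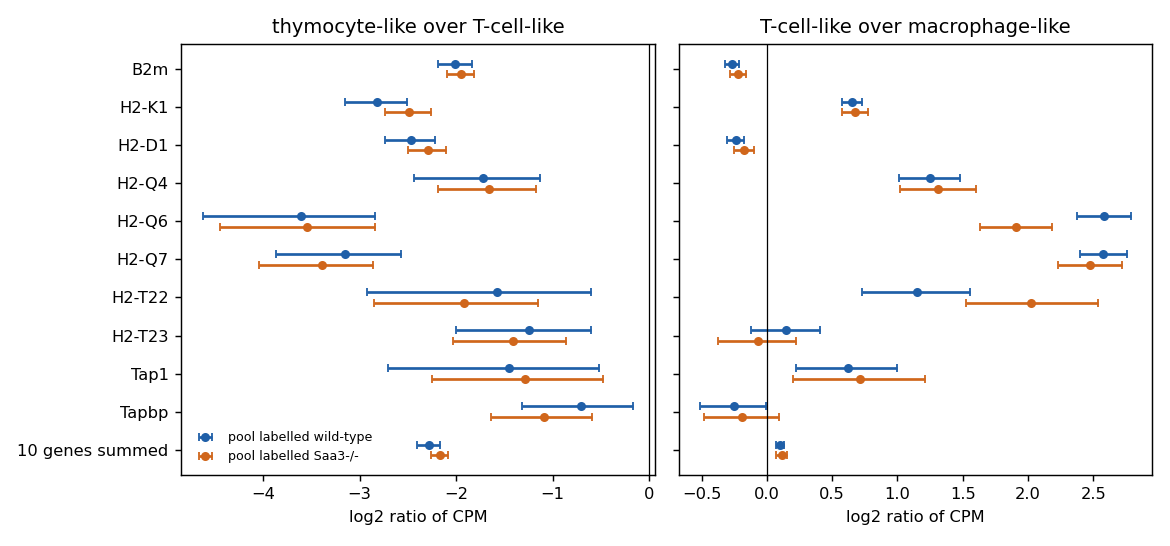
Log2 ratio of CPM (horizontal axes) of each gene and of the 10 summed (rows), thymocyte-like over T-cell-like cells on the left and T-cell-like over macrophage-like cells on the right, in both pools. Bars are exact 95% counting intervals. On the left all values lie below 0, from −0.70 to −3.60, and on the right H2-Q6 and H2-Q7 are the highest in the pool labelled wild-type at 2.58.

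The difference lay in most of the cells, not in a few. The median cell had a summed level of 2276 and 2387 CPM among thymocyte-like and 15104 and 13100 CPM among T-cell-like cells. No thymocyte-like cell of 26 in the pool labelled wild-type, and 1 of 71 in the pool labelled Saa3-/-, exceeded the median of T-cell-like cells. The groups did overlap, since thymocyte-like cells reached 13757 and 15236 CPM and T-cell-like cells went down to 1966 and 2180. The 2 thymocyte-like cells with the most molecules held 26.4% and 15.04% of the group's molecules of the 10 genes.

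The level was lower the more thymocyte genes a T-lineage cell showed, up to 3 of them. In the pool labelled wild-type, cells with 0, 1, 2, 3 and at least 4 of the 6 genes had summed levels of 14798, 11157, 5591, 3239 and 2211 CPM. The counts behind these are 120, 12, 6, 10 and 10 cells. In the pool labelled Saa3-/- the levels were 13021, 8472, 3300, 2619 and 2988 CPM, over 136, 13, 16, 31 and 24 cells. Cells in which 1 gene was found thus lay between the 2 gated groups. Depth moved with the number of genes found: the median was 4616 molecules per cell at 0 genes and 10711 at 4 or more in the pool labelled wild-type, and 3896 and 4843 in the other. With each cell thinned to 2000 molecules the summed log2 ratio of thymocyte-like over T-cell-like cells was −2.25 and −2.19.

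**Figure D4:**
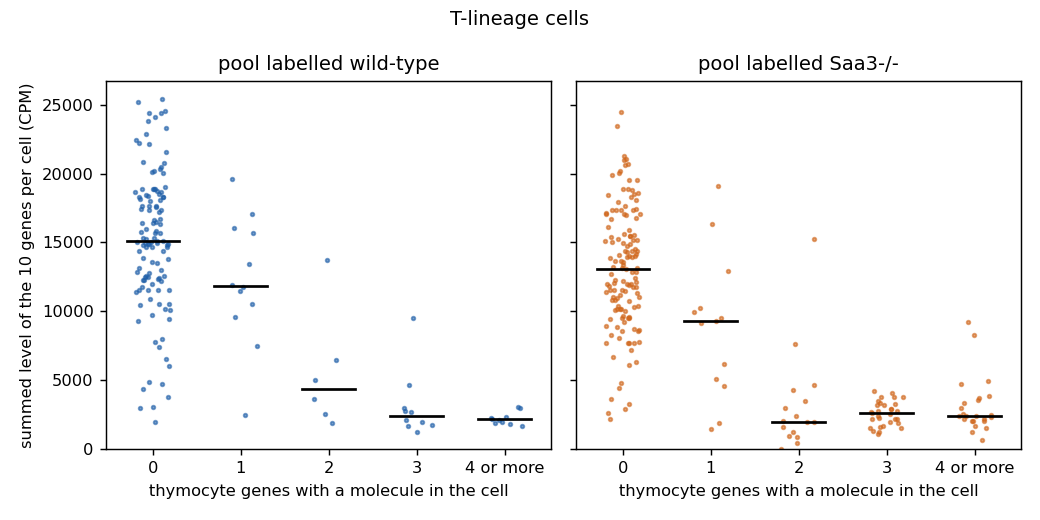
Summed level of the 10 genes in single T-lineage cells in CPM (vertical axis, from 0) by the number of thymocyte genes found in the cell (horizontal axis), 1 panel per pool. Each point is a cell, its sideways place within a column is random, and black lines are medians. The median is 15104 and 13100 CPM at 0 genes and between 2145 and 2584 CPM at 3 or more.

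The share of cells with a molecule followed the levels after thinning to 2000 molecules, which left out 1 thymocyte-like cell per pool and 3 and 2 T-cell-like cells. H2-K1 was then found in 36.0% and 41.4% of thymocyte-like and 98.3% and 94.8% of T-cell-like cells (73.1%, 71.8%, 99.2% and 98.5% before thinning). H2-Q6 was found in 4.00% and 5.71% against 69.2% and 52.2% (15.4%, 11.3%, 85.0% and 68.4% before thinning). B2m was still found in 96.0% and 87.1% of thymocyte-like cells.

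Markers of other cell types were low in both T-lineage groups. The gate in part required this, since it left out cells scoring within 0.1 of a second type. The values are therefore a description, not a separate check of the groups. The 7 macrophage markers were all detected, at 539 and 614 CPM in thymocyte-like and 651 and 574 CPM in T-cell-like cells, 3.92% to 4.73% of their level in macrophage-like cells. The 6 fibroblast markers were all detected at 625 and 723 CPM in thymocyte-like and 759 and 772 CPM in T-cell-like cells. Of the 6 B cell markers, Ms4a1 was at 0 in thymocyte-like cells, and the list stood at 62.5 and 58.7 CPM there. RNA from outside the cell can add to the low class I levels. Its part in them was not tested.

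The ratio depended on how cells were grouped and scaled. With clusters in place of the gate, the summed log2 ratio was −1.003 and −1.75 and 5 of the 10 genes were at least 2-fold lower in both pools. The clusters named thymocyte held 33 and 82 cells, of which 10 and 14 were not thymocyte-like by the gate, and those had 13417 and 8639 CPM. Counted as molecules per cell with no scaling, the log2 ratio was −1.63 in the pool labelled wild-type, where thymocyte-like cells held a mean of 7996 molecules and T-cell-like cells 5093.

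Other genes of the pathway moved less uniformly between thymocyte-like and T-cell-like cells. Of 44 further genes in 6 lists, 43 were in the tables and 30 had enough molecules in both pools. Of these 30, 5 were at least 2-fold lower in both pools and 4 higher, beside 7.83% and 7.07% of all genes tested. Among the class I regulators, Nlrc5, the coactivator of class I promoters, was counted 2 times in thymocyte-like and 113 times in T-cell-like cells of the pool labelled wild-type, a log2 ratio of −3.95 (−7.33 to −2.38). Under the Saa3-/- label it was counted 12 and 106 times, −2.51 (−3.56 to −1.70). Irf9, a transcription factor of interferon signalling, gave −1.61 and −1.65. Irf1, an interferon-induced activator of class I genes, was not past the fold, at 0.46 (−0.06 to 0.96) and −0.14 (−0.64 to 0.34). Nfyb, a subunit of the Y-box factor NF-Y, was higher at 1.86 and 1.48.

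Among receptors and heavy chains outside the 10, both subunits of the class I coreceptor were higher in thymocyte-like cells. Cd8a gave 1.22 and 1.90 and Cd8b1 gave 1.15 and 2.34. Klrd1, which encodes CD94, was counted 0 and 1 times against 43 and 33. H2-M3, a heavy chain that presents formylated peptides, gave −1.06 and −1.004. These values just past the fold rest on 3 and 6 molecules in thymocyte-like and 21 and 19 in T-cell-like cells. H2-Q2 went against all 10 genes, with 26 molecules against 6 and 38 against 4, a log2 ratio of 3.58 (2.36 to 5.24) and 3.68 (2.36 to 5.78). Its counts may be affected by the sequence that class I genes share.

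The proteasome and chaperone lists stayed nearer to the T cell level. None of the 5 genes of the immunoproteasome and its activator, which cut proteins into class I peptides, was past the fold in both pools, and their median was −0.33. None of the 3 catalytic subunits of the constitutive proteasome was, and their median was 0.68. None of the 6 other loading and trimming genes was, and their median was −0.28. Of all genes tested, 7.83% were past the fold downwards and 7.07% upwards in both pools. Finding none in lists this short therefore does not set them apart from other genes. Tap2, the partner of Tap1 in the transporter, gave 0.94 and 0.27 where Tap1 gave −1.45 and −1.28. Psme2, an activator subunit, gave −1.13 and −0.80.

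Thymocyte-like cells were also set against the other types. Among the 10 genes, at least a 2-fold lower level in both pools was found for 9 against B-cell-like cells (8.57% of all genes tested in both pools), 8 against dendritic-cell-like cells (11.4%), 5 against macrophage-like cells (15.3%) and 1 against fibroblast-like cells (20.2%). Against smooth-muscle-like cells the summed log2 ratio was 0.07 (−0.06 to 0.20) and 0.06 (−0.06 to 0.18). None of the 10 was 2-fold lower there, beside 17.9% of all genes tested, and 2 were 2-fold higher in both pools, beside 24.5%. These were H2-Q4 at 1.80 (0.92 to 2.67) and 1.61 (0.79 to 2.54), and H2-T23 at 1.67 (0.77 to 2.55) and 1.74 (0.78 to 2.87).

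T-cell-like and macrophage-like cells had similar sums in CPM, with a larger share of Qa-2 family genes in T-cell-like cells. B2m, H2-K1 and H2-D1 made up most of both sums, 81.0% and 82.1% in T-cell-like and 92.1% and 91.5% in macrophage-like cells. This comparison, and those with B-cell-like, dendritic-cell-like and smooth-muscle-like cells, were chosen after the values were seen. The summed log2 ratio of T-cell-like over macrophage-like cells was 0.10 (0.07 to 0.13) and 0.11 (0.07 to 0.15). Its direction depended on the scaling, turning to −0.35 and −0.27 with TMM scaling (a trimmed mean of the ratios of all genes set to 0) and to −1.16 and −0.92 as molecules per cell. H2-Q6 gave 2.58 (2.38 to 2.79) and 1.91 (1.63 to 2.19), and H2-Q7 gave 2.58 (2.40 to 2.76) and 2.47 (2.23 to 2.72). With H2-Q4 (1.25 and 1.31) and H2-T22 (1.15 and 2.02), 4 of the 10 were at least 2-fold higher in T-cell-like cells in both pools, beside 14.7% of 8979 genes, and none was lower, beside 12.8%. B2m was slightly lower in T-cell-like cells, at −0.27 (−0.32 to −0.22) and −0.22 (−0.28 to −0.16). Macrophage-like cells held a mean of 12170 and 8443 molecules. As molecules per cell, H2-Q6 gave 1.33 and 0.87, H2-Q7 gave 1.32 and 1.44, and B2m gave −1.53 and −1.25.

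B-cell-like cells were within 2-fold of T-cell-like cells for all 10 genes in both pools, beside 8.71% of 6008 genes at least 2-fold lower and 4.59% higher in both. The largest difference shared by both pools was that of H2-Q7, at −0.85 (−1.16 to −0.57) and −0.58 (−0.83 to −0.33). H2-Q6 was −0.26 (−0.56 to 0.01) in the pool labelled wild-type and 0.96 (0.72 to 1.19) in the pool labelled Saa3-/-. Between dendritic-cell-like and macrophage-like cells, Tap1 alone of the 10 was at least 2-fold higher in both pools, at 1.82 (1.48 to 2.15) and 1.40 (0.87 to 1.91), beside 3.99% of 8269 genes. B2m went the other way, at −0.54 (−0.61 to −0.47) and −0.74 (−0.83 to −0.65).

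The 10 genes followed each other to different degrees. Over 15 profiles, each 1 type in 1 pool, the log2 level of a gene correlated with that of the other 9 summed at a Pearson r of 0.99 for H2-D1, 0.97 for H2-K1 and 0.96 for B2m. It was lowest for H2-T22 (0.65) and Tapbp (0.69). Of 8083 genes outside the 10 and the markers, those with the most similar profiles were Prr13 (0.93), Gm12185 (0.93), Adam19 (0.91), Neurl3 (0.91) and Ifi35 (0.90). Of these, 4 had their lowest level in thymocyte-like cells and Gm12185 in smooth-muscle-like cells. The summed level was lowest in the same types, so these low places largely follow from how the genes were picked. The profiles share a library, and those of 1 pool share its depth, so these values are descriptions.

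Between the pools the summed level of the 10 genes in CPM stayed within 2-fold in each type. The pool labelled Saa3-/- was lower in the summed level in macrophage-like cells, at a log2 ratio of −0.20 (−0.22 to −0.17), and in T-cell-like cells, at −0.18 (−0.23 to −0.14). It was lower in dendritic-cell-like cells at −0.42 (−0.50 to −0.35) and in fibroblast-like cells at −0.46 (−0.52 to −0.40). The ratios were −0.07 (−0.22 to 0.07) in thymocyte-like, −0.06 (−0.16 to 0.04) in smooth-muscle-like and 0.07 (−0.01 to 0.14) in B-cell-like cells. The pools differ in label, in substrain as labelled and in depth, and these cannot be told apart with 1 pool each.

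Single genes stayed within 2-fold between pools, with 1 exception. H2-Q6 in dendritic-cell-like cells was counted 41 times in the pool labelled Saa3-/- and 127 times in the other, a log2 ratio of −1.30 (−1.85 to −0.79), beside 6.21% of 5286 genes at least 2-fold lower there and 4.33% higher. In macrophage-like cells 8 of the 10 were lower and 2 higher, none by 2-fold, beside 2.34% of 10559 genes 2-fold lower and 2.27% higher. H2-D1 gave −0.20 (−0.25 to −0.15), B2m −0.20 (−0.23 to −0.16) and H2-K1 −0.26 (−0.33 to −0.19) in those cells. In T-cell-like cells 9 were lower and 1 higher, none by 2-fold. Of 7447 genes there, 3.34% were at least 2-fold lower and 2.65% at least 2-fold higher. H2-Q6 was furthest from 0 in T-cell-like cells, at −0.60 (−0.82 to −0.38). H2-Q6 went the other way in B-cell-like cells, at 0.62 (0.33 to 0.92), where 3 of the 10 were lower and 7 higher, none by 2-fold. Of 4879 genes there, 5.12% were at least 2-fold lower and 5.25% at least 2-fold higher. In dendritic-cell-like cells all 10 were lower. In fibroblast-like cells 9 were lower, none by 2-fold, beside 3.12% of genes at least 2-fold lower and 4.23% at least 2-fold higher. Thymocyte-like cells had 7 lower (4.34% and 8.44% of genes at least 2-fold lower and higher) and smooth-muscle-like cells 4 (3.24% and 2.88%), again none by 2-fold. The share of all genes lower by any amount was not counted, so the counts of lower and higher genes have no share to match. The shares given are of genes past 2-fold only. Over the 7 types, the median log2 ratio of all genes tested ran from −0.03 (fibroblast-like) to 0.06 (thymocyte-like). That of the 10 genes ran from −0.50 (dendritic-cell-like) to 0.13 (smooth-muscle-like).

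Several pool differences moved with the scaling or the grouping of cells. Fibroblast-like cells thinned to 2000 molecules, which changes both depth and the weight of each cell, gave −0.09 (−0.23 to 0.05) in place of −0.46. With each cell weighing the same and no thinning they gave −0.28. As molecules per cell with no scaling, macrophage-like cells gave −0.73 and T-cell-like cells −0.49. With clusters in place of the gate, thymocyte cells gave −0.94 in place of −0.07.

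**Figure D5:**
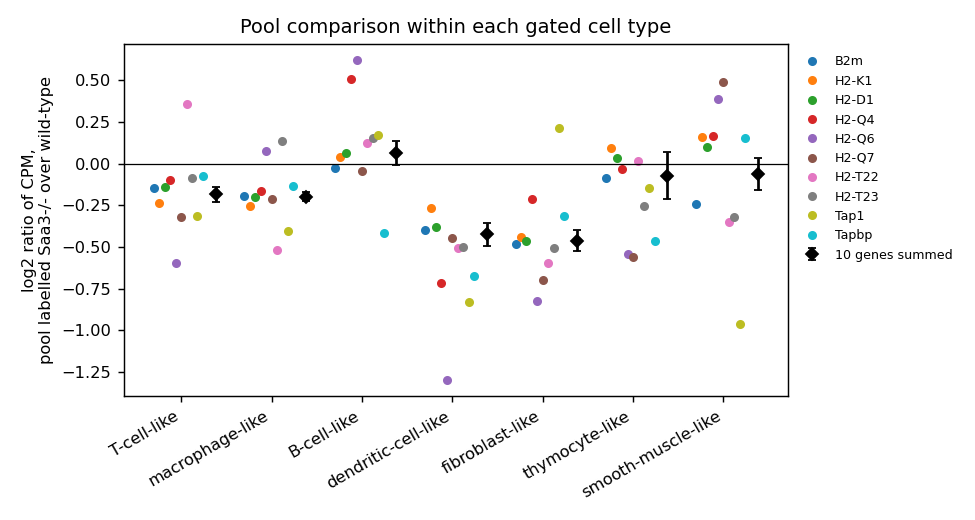
Log2 ratio of CPM between pools, Saa3-/- label over wild-type label (vertical axis), for each gene (coloured points) and the 10 genes summed (black diamonds with exact 95% counting intervals) in each gated cell type (horizontal axis). The sums lie between −0.46 and 0.07, and H2-Q6 in dendritic-cell-like cells is lowest at −1.30.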

How the data were processed

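The authors used the BD Rhapsody WTA Analysis Pipeline 1.11.1 with GRCm38, GENCODE release 19 and intronic reads, per the file headers. The deposited tables, 1 per sample tag, hold whole-number counts of molecules per gene and cell. Only the names of the tables tie a tag to a genotype. Tags were called for 2401 putative cells, and the 11 multiplets and 647 undetermined cells are not in the tables. No doublet caller was run, but a cell scoring within 0.1 of a second type was not gated.

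Of 1743 cells, 87 with fewer than 200 genes or over 25% mitochondrial molecules were left out. A cell's score for a type was the mean over fixed markers of log2(counts per 10000 + 1), each divided by the mean of that marker's 20 highest cells. It was gated at 0.3 with 3 markers detected. Molecules were summed per type and pool. Levels are CPM with exact Poisson intervals, and ratios use a pseudocount of 0.5 molecule with exact conditional binomial intervals (numpy 2.4.6, scipy 1.17.1, Python 3.11.15). The ratio function was tested on simulated data. Alternative clusters came from scanpy 1.11.5 and leidenalg 0.10.2. Positions and shared stretches come from GENCODE release 21, and promoter windows from RefSeq on GRCm38.p6.

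The members, lists and markers were chosen with earlier results of these data known. All 10 genes are named. From the other lists, up to 5 genes in each direction with the largest mean ratio of thymocyte-like over T-cell-like cells are named, with Nlrc5 and Irf1, and the 5 genes with the most similar profile. Items withheld from this text are not reported here. Tap2, Psme2 and Ptprc were named after their values were seen. The letters of the kappaB and interferon response motifs were shortened by 1 base after their matches were seen.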

Additional observations from a re-analysis of the deposited data

How the results depend on the processing

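The lower summed level in thymocyte-like than in T-cell-like cells kept its direction under all 14 alternatives in each pool, from −2.55 to −1.003 (log2) in the pool labelled wild-type and from −2.33 to −1.75 in the pool labelled Saa3-/-. The values that moved in those pools, in that order, were −1.003 and −1.75 with Leiden clusters, −2.49 and −2.32 with TMM scaling, −1.63 and −1.81 as molecules per cell and −2.45 and −2.33 without the 2 highest cells of each group. With at least 3 thymocyte genes the first pool gave −2.55. The count of 9 genes fell to 5 with Leiden clusters, and was 6 as molecules per cell or at 3-fold, 8 in thinned cells and 10 at 1.5-fold. For the pools, macrophage-like cells gave −0.17 with Leiden clusters, −0.23 with a margin of 0.2, −0.26 with TMM scaling and −0.73 as molecules per cell. T-cell-like cells gave −0.49 as molecules per cell, −0.25 without the 2 highest cells and −0.24 in thinned cells. The B-cell-like pool ratio turned from 0.07 to −0.25 as molecules per cell. The summed ratio of T-cell-like over macrophage-like cells turned from 0.10 and 0.11 to −0.35 and −0.27 with TMM scaling and to −1.16 and −0.92 as molecules per cell. Alternatives for this ratio, for single genes and for the other types' pool ratios were chosen after seeing the data. The causes of these shifts were not tested. No paired analysis was possible because each genotype has 1 pool. Depth limits Tap1, H2-T22 and H2-Q6 most, with 8 to 15 molecules per pool in thymocyte-like cells. Those of H2-Q6 came from 4 and 8 cells.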
